A study of Homo sapiens with 18 samples.

Results

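Described here are the 4 members of the early growth response (EGR) family of transcription factors, EGR1, EGR2, EGR3 and EGR4, and 2 corepressors. The corepressors are NAB1 and NAB2, which bind EGR1, EGR2 and EGR3. The genes were taken by symbol, and all 6 were found among the 26485 genes of the table of normalized counts. Each had a mean of at least 10 over the libraries, so none was lost to the filter on low values that left 13096 genes to be tested. The cells were a human pancreatic cancer line, L3.6pl (Par), and 1 gemcitabine-resistant line derived from it (GemR), whose growth medium held 64 nM gemcitabine. All cells were transfected for 48 h, Par with a control siRNA (siCont) and GemR with siCont or with an siRNA to STIM1 (siSTIM1). For the 3 h before harvest they received either DMSO (vehicle) or thapsigargin at 500 nM. Thapsigargin blocks the SERCA pump, so that the endoplasmic reticulum loses its calcium, and STIM1 is the sensor that opens calcium entry when this store runs low. Each of the 6 combinations was sequenced in 3 libraries, 18 in all, and Par received siCont only. Labels name the replicates by number only, so p-values here measure the spread between these libraries, which may be technical. Since GemR is a single line kept in the drug, resistance, the presence of gemcitabine and any other difference of that line from Par cannot be told apart. Where GemR siSTIM1 is set against Par, the siRNA differs too and cannot be told apart from the line.

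EGR proteins are zinc-finger transcription factors that bind GC-rich DNA. Their genes are immediate early genes: they are switched on within minutes of a stimulus, without new protein synthesis, largely by serum response factor (SRF) with its ERK-activated ETS partners, and by CREB and other calcium-responsive factors. EGR2 and EGR3 are well studied in T cells, where their induction depends on calcium, calcineurin and NFAT. NAB1 and NAB2 do not bind DNA themselves. They dock on a repression domain that EGR1, EGR2 and EGR3 carry, and recruit the CHD4 subunit of the NuRD complex. NAB2 is itself induced by EGR factors and so closes a feedback loop.

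The bases upstream of RefSeq start sites are shown to set the known kinds of control element of these genes beside their values. RefSeq (GRCh38.p14) gave windows of 250 bases for EGR1, EGR2, EGR4, NAB1 and NAB2, 9 windows in all for these 5 of the 6 members. They were searched on both strands for the CArG box bound by SRF, for ACGTCA, a core of the cyclic AMP response element bound by CREB, and for the EGR motifs GCGTGGGCG and GCGGGGGCG. The CArG box was taken as CC, 6 bases of A or T, then GG. Only exact matches were counted, so sites that differ by a base were not found. Capitals mark the matches, and positions are counted back from the start site, whose upstream neighbour is position -1. The stretches of EGR4, NAB1 and NAB2 are short cuts around a match.
EGR1, chr5:138465229-138465478, + strand: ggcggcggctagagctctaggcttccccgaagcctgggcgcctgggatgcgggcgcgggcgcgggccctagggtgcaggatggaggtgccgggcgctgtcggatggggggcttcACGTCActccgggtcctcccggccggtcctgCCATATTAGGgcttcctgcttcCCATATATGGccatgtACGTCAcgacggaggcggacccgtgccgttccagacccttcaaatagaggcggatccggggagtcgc
EGR2, chr10:62816367-62816616, - strand: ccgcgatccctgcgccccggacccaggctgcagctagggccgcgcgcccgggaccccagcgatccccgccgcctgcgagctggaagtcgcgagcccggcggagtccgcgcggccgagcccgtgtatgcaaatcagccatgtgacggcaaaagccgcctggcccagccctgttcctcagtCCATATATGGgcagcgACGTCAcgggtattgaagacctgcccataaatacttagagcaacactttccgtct
EGR4, chr2:73293712-73293735, - strand: acaacaacaACGTCAcagctcgag
EGR4, chr2:73293644-73293667, - strand: tgggcatttACGTCAcggcggcag
NAB1, chr2:190648899-190648925, + strand: ctcggccgcGCGTGGGCGggagccgga
NAB2, chr12:57089043-57089069, + strand: gtgcgtcctGCGGGGGCGgaggcgcgg
The EGR1 window held 2 CArG boxes, from -105 to -96 and from -83 to -74, and 2 ACGTCA motifs, from -136 to -131 and from -67 to -62. The EGR2 window shown held 1 CArG box from -71 to -62 and 1 ACGTCA from -55 to -50, while the other 2 EGR2 windows held no match. The EGR4 window held ACGTCA at 2 places, from -178 to -173 and from -110 to -105, and no exact match to the CArG box. EGR motifs were found in windows of both corepressors. A GCGGGGGCG lay from -62 to -54 of NAB2, and 1 of 3 NAB1 windows held a GCGTGGGCG from -175 to -167, with 2 overlapping GCGGGGGCG further upstream, from -230 to -222 and from -224 to -216, that a neighbouring window shares. The last NAB1 window held none of these but 1 ACGTCA, from -200 to -195. GENCODE 29 places some of these stretches inside the genes, where some of its models start further upstream than the RefSeq start sites. The NAB2 stretch, the NAB1 stretch shown and the second EGR4 stretch lie in exons of their own genes, and the EGR2 window lies within EGR2 outside its exons. The EGR1 window and the first EGR4 stretch lie outside the genes. Of all 35116 windows of this length, 1.159% held a CArG box, 7.102% an ACGTCA, 0.7205% a GCGTGGGCG and 4.724% a GCGGGGGCG. A match is a run of letters and no measure of binding.

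In the GENCODE 29 annotation (GRCh38), EGR1 (ENSG00000120738.7) lies at chr5:138465490-138469315 on the + strand and EGR2 (ENSG00000122877.15) at chr10:62811996-62919900 on the - strand. EGR3 (ENSG00000179388.8) lies at chr8:22687659-22693302 and EGR4 (ENSG00000135625.7) at chr2:73290929-73293705, both on the - strand. NAB1 (ENSG00000138386.16) lies at chr2:190646746-190692766 and NAB2 (ENSG00000166886.12) at chr12:57088894-57095476, both on the + strand. The last 69 exon bases of NAB2 overlap exons of STAT6, which runs the other way. The library kit does not mark strand, and the counting mode is not given in the sources used here. Reads from that overlap therefore cannot be assigned to NAB2 or STAT6. EGR3 shares 164 exon bases with AC055854.1, and NAB1 shares 186 with AC006460.1 and 10 with AC006460.2. These genes also lie on the opposite strand and are not among the symbols of the normalized counts, so reads from those overlaps cannot be assigned either.

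Reads recovered from the normalized counts ranged from 8922439 to 16519239 per library. STIM1 was at a mean of 457 normalized counts in Par with vehicle, 5890 in GemR siCont with vehicle and 382 in GemR siSTIM1 with vehicle, and every siSTIM1 library lay below every GemR siCont library. The 7 epithelial markers summed to between 77329 and 109358 in every library, and the 6 immune markers to at most 11.9. Keratins made up most of the epithelial sum, while CDH1 was at group means of 83.9 to 534 and MUC1 at 98.05 to 236. Of the fibroblast markers DCN was at 0 in all libraries, although COL1A1 was present at group means of 1059 to 3022. Of the endothelial markers, TEK and KDR were at or near 0, and PECAM1 and CDH5 were at up to 158 and 176 normalized counts. These are bulk libraries, in which fewer cells of a type and less RNA per cell cannot be told apart. In 2 libraries longer genes were lowest relative to their group: these were replicate 1 of GemR siCont with vehicle and replicate 1 of treated GemR siSTIM1 (Spearman's rho of -0.58 and -0.51 across 12419 genes, which are not independent). They are called the libraries with a length trend below. Replicates 2 and 3 went the other way, with rho of 0.40 and 0.53 in GemR siCont with vehicle and of 0.37 and 0.38 in treated GemR siSTIM1. Deviations from a mean of 3 libraries offset each other, so they cannot say which library departs. Both replicates 1 were also left out together as a check, and each gene's result that gained or lost a call is given with that value too.

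Thapsigargin changed members of the family in each line, but not the same members throughout. In Par, 5 of the 6 members passed the test, 4 of them higher (EGR1, EGR2, EGR3 and EGR4) and 1 lower (NAB2), where 40.1% of all tested genes passed. In GemR with siCont 3 members passed, against 33.6% of all genes. These were EGR3 and EGR4, which rose, and NAB2, which fell. In GemR with siSTIM1 all 6 passed, against 24.3% of all genes: the 4 EGR genes rose, and NAB1 and NAB2 fell. Levels are normalized counts, folds and log2 differences are on the scale of log2(normalized count + 1), and values after ± are SD (n = 3) for levels and limma standard errors for log2 differences. Each adjusted p comes from limma, adjusted by Benjamini and Hochberg over all genes tested.

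**Figure D1:**
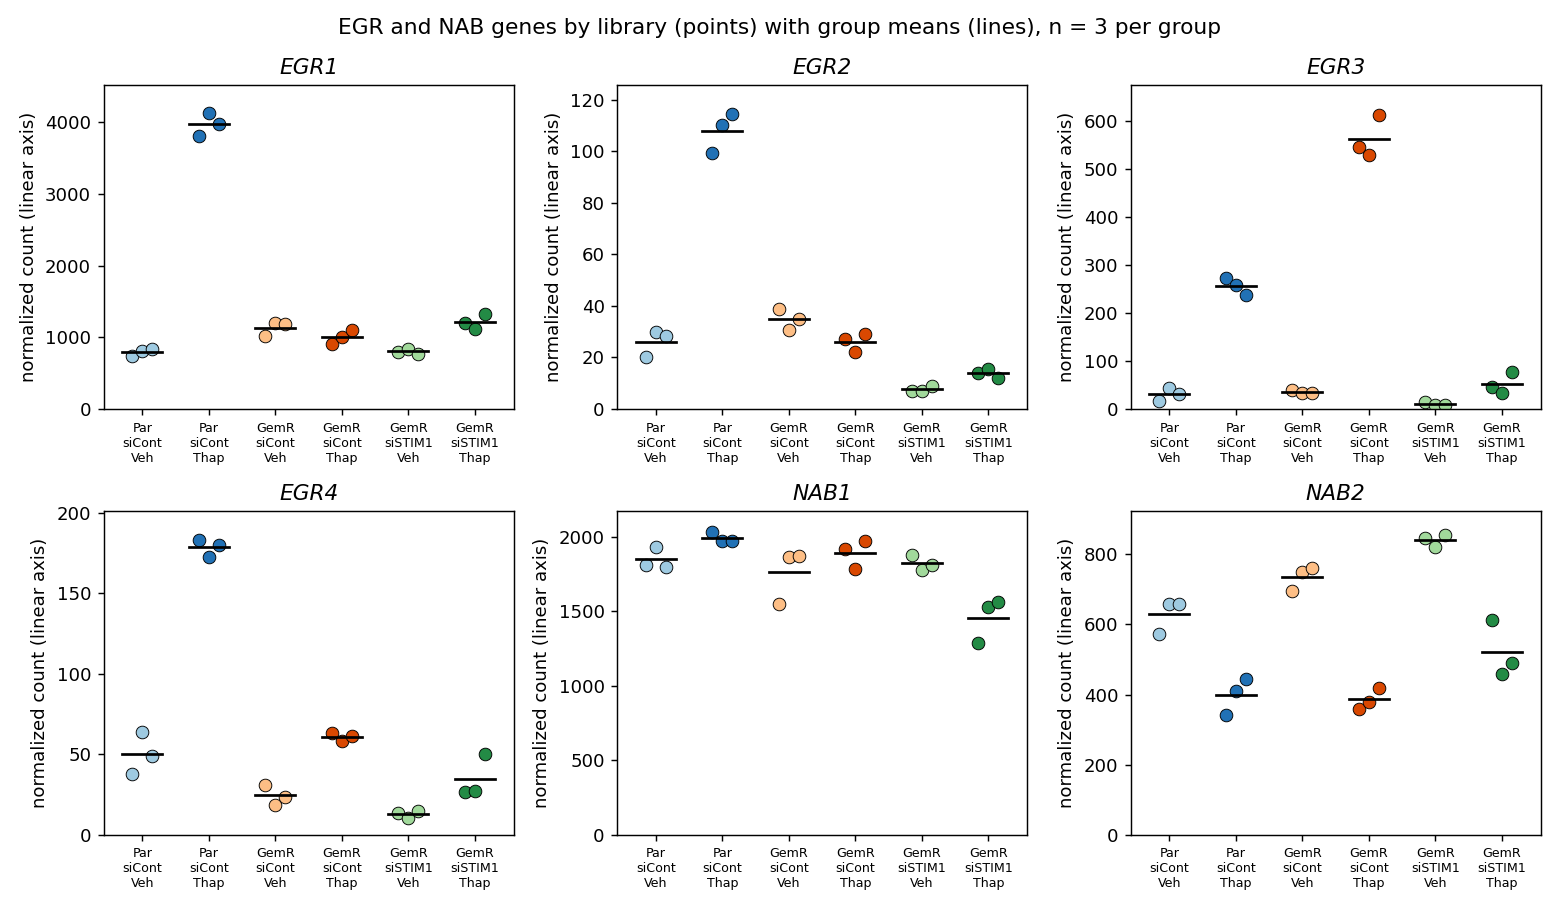
Normalized counts of the 6 genes (linear axes from 0, 1 panel a gene) in each of the 18 libraries, as points by group, with the group mean as a line. EGR1 is high in Par with thapsigargin alone, at 3811 to 4136, whereas EGR3 is highest in GemR siCont with thapsigargin, at 529 to 613.

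EGR1, the family's most abundant and broadly expressed member, was at 740, 815 and 837 normalized counts in Par with vehicle and at 3811, 4136 and 3978 with thapsigargin. It was at 1016, 1199 and 1191 in GemR siCont with vehicle and at 901, 1000 and 1095 with thapsigargin. In GemR siSTIM1 it was at 798, 836 and 773 with vehicle and at 1201, 1110 and 1319 with thapsigargin. The treated Par libraries thus stood far above all others, the GemR siCont groups overlapped, and the siSTIM1 groups were separate. EGR1 rose 4.99-fold in Par (log2 2.32 ± 0.09, adjusted p = 5.4e-14) and 1.51-fold in GemR siSTIM1 (0.59 ± 0.09, adjusted p = 2.8e-05). Its difference in GemR siCont was -0.19 ± 0.09 on the log2 scale (95% interval -0.37 to -0.01), which did not pass after adjustment (adjusted p = 0.104). That value lies near the threshold. It passed as a fall with median-centred values (-0.23, adjusted p = 0.0438), without GemR siCont vehicle replicate 1 (-0.26, adjusted p = 0.0167), without GemR siCont thapsigargin replicate 3 (-0.25, adjusted p = 0.0490) and without both libraries with a length trend (-0.26, adjusted p = 0.0081), in a range of adjusted p from 0.0081 to 0.385 over 19 alternatives. No alternative gave a rise.

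EGR2, which drives myelination in Schwann cells, was scarce. Its normalized counts were 20.3, 29.7 and 28.3 in Par with vehicle and 99.2, 110 and 114 with thapsigargin. They were 39.0, 30.7 and 35.0 in GemR siCont with vehicle and 27.3, 22.02 and 28.9 with thapsigargin. In GemR siSTIM1 they were 6.83, 7.12 and 8.94 with vehicle and 13.8, 15.6 and 12.1 with thapsigargin, which rest on 6 to 9 and 14 to 20 reads a library. As for EGR1, treated Par stood above every other group. EGR2 rose 4.06-fold in Par (2.02 ± 0.21, adjusted p = 2.4e-07). In GemR siCont the groups did not overlap, thapsigargin being the lower, but the difference of -0.41 ± 0.21 did not pass (adjusted p = 0.142). The 1.72-fold rise in GemR siSTIM1 (0.79 ± 0.21, adjusted p = 0.0086) did not pass with edgeR (adjusted p = 0.0777), DESeq2 (0.160) or a limma fit of only the libraries compared (0.0913), in a range of 0.0014 to 0.160 over 18 alternatives. The authors' deposited table gives an adjusted p of 0.121 for it.

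EGR3, which with EGR2 is a calcium-induced gene of T cells, gave the family's largest changes. It was at 16.2, 44.5 and 32.2 normalized counts in Par with vehicle and at 273, 258 and 238.1 with thapsigargin. In GemR siCont it was at 39.0, 32.4 and 34.1 with vehicle and at 545, 529 and 613 with thapsigargin. In GemR siSTIM1 it was at 13.7, 9.15 and 7.94 with vehicle and at 46.5, 33.6 and 76.6 with thapsigargin. Treatment separated the groups in all 3 backgrounds, and the treated GemR siCont libraries were the highest of all 18. EGR3 rose 8.67-fold in Par (3.12 ± 0.29, adjusted p = 6.2e-08), 15.6-fold in GemR siCont (3.96 ± 0.29, adjusted p = 2.3e-09) and 4.58-fold in GemR siSTIM1 (2.19 ± 0.29, adjusted p = 1.0e-05). From its lowest to its highest library EGR3 spanned 77.1-fold, more than any other member, and EGR1 spanned 5.59-fold.

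EGR4, a member described mainly in neurons, was at 37.6, 63.8 and 48.8 normalized counts in Par with vehicle and at 183, 173 and 180 with thapsigargin. In GemR siCont it was at 31.2, 18.4 and 23.7 with vehicle and at 63.0, 58.1 and 61.1 with thapsigargin. In GemR siSTIM1 it was at 13.7, 10.2 and 14.9 with vehicle and at 26.7, 27.4 and 49.96 with thapsigargin. No treated group overlapped its vehicle group, and each treated GemR group lay below treated Par. The rises were 3.60-fold in Par (1.85 ± 0.25, adjusted p = 6.2e-06), 2.48-fold in GemR siCont (1.31 ± 0.25, adjusted p = 3.3e-04) and 2.49-fold in GemR siSTIM1 (1.31 ± 0.25, adjusted p = 4.5e-04).

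NAB2, the inducible corepressor, fell in all 3 backgrounds, in each of which EGR3 and EGR4 rose. It was at 574, 658 and 657 normalized counts in Par with vehicle and at 342, 409 and 445 with thapsigargin. In GemR siCont it was at 695, 750 and 760 with vehicle and at 360, 379 and 419 with thapsigargin. In GemR siSTIM1 it was at 847, 822 and 855 with vehicle and at 612, 459 and 489 with thapsigargin. The groups were apart in each background, with thapsigargin below vehicle. NAB2 fell 1.58-fold in Par (-0.66 ± 0.11, adjusted p = 5.8e-05), 1.90-fold in GemR siCont (-0.93 ± 0.11, adjusted p = 1.1e-06) and 1.63-fold in GemR siSTIM1 (-0.70 ± 0.11, adjusted p = 4.8e-05). STAT6, which shares exon bases with NAB2, differed by -0.08 ± 0.07, -0.15 ± 0.07 and -0.02 ± 0.07 in the same comparisons, none of which passed (adjusted p = 0.382, 0.113 and 0.873).

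NAB1, the corepressor that is expressed constitutively, varied least: its highest library was 1.58 times its lowest. It was at 1810, 1931 and 1797 normalized counts in Par with vehicle and at 2032, 1970 and 1970 with thapsigargin. In GemR siCont it was at 1550, 1860 and 1868 with vehicle and at 1917, 1784 and 1967 with thapsigargin. In GemR siSTIM1 it was at 1876, 1773 and 1809 with vehicle and at 1283, 1525 and 1562 with thapsigargin. The treated siSTIM1 libraries were below all others but GemR siCont vehicle replicate 1, at 1550. The lowest of them, at 1283, and that vehicle library are those with a length trend, and NAB1 is among the longer members. NAB1 differed by 0.11 ± 0.08 in Par (adjusted p = 0.291) and by 0.11 ± 0.08 in GemR siCont (adjusted p = 0.324), neither of which passed. In Par every treated library nevertheless lay above every vehicle library, whereas the GemR siCont groups overlapped. In GemR siSTIM1 NAB1 fell 1.25-fold (-0.33 ± 0.08, adjusted p = 0.0047). Without both libraries with a length trend that fall was -0.24 (adjusted p = 0.0226, in a range of 0.0015 to 0.0344 over 19 alternatives).

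**Figure D2:**
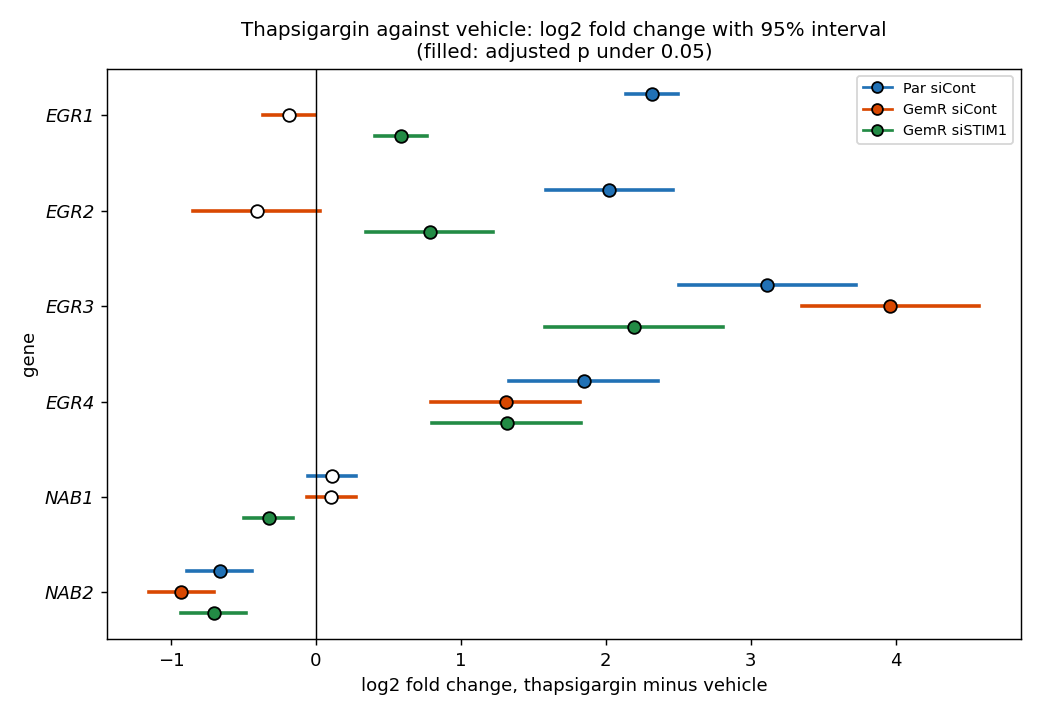
Log2 difference between thapsigargin and vehicle for each gene (x axis, log2 scale) in Par, GemR siCont and GemR siSTIM1, with 95% intervals from limma. Filled points passed at an adjusted p under 0.05 and open points did not. EGR1 and EGR2 are right of 0 in Par and left of it in GemR siCont, while EGR3 lies furthest right in GemR siCont at 3.96.

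The differences between these responses were tested in the same fit. They share vehicle and treated groups with the comparisons above, so they restate those values as a test of the difference. Between GemR siCont and Par 2 members passed, EGR1 (-2.50 ± 0.12, adjusted p = 8.4e-11) and EGR2 (-2.43 ± 0.30, adjusted p = 1.1e-05), where 14.8% of all genes passed. The other EGR genes did not follow them: the response of EGR4 differed by -0.54 ± 0.35 (95% interval -1.26 to 0.19, adjusted p = 0.357), and that of EGR3 by 0.85 ± 0.41 in the opposite direction (95% interval -0.02 to 1.71, adjusted p = 0.197). The EGR3 difference passed without Par siCont vehicle replicate 1, its lowest Par library (1.24, adjusted p = 0.0259, in a range of 0.0259 to 0.444 over 25 alternatives). NAB1 (-0.0030 ± 0.11, adjusted p = 0.991) and NAB2 (-0.27 ± 0.15, adjusted p = 0.281) did not pass.

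Between GemR siSTIM1 and GemR siCont 4 members passed, where 4.41% of all genes did, and they split by direction. The response of EGR1 was higher with siSTIM1 by 0.78 ± 0.12 (adjusted p = 6.8e-04) and that of EGR2 by 1.19 ± 0.30 (adjusted p = 0.0255), whereas that of EGR3 was lower by 1.77 (-1.77 ± 0.41, adjusted p = 0.0179) and that of NAB1 lower by 0.43 (-0.43 ± 0.11, adjusted p = 0.0343). The higher responses of EGR1 and EGR2 started from lower vehicle levels, at log2 differences of -0.50 and -2.06 between siSTIM1 and siCont. With thapsigargin those differences were 0.28 for EGR1 and -0.86 for EGR2, so EGR2 remained lower with siSTIM1. The EGR4 response differed by 0.0044 ± 0.35 (95% interval -0.72 to 0.73, adjusted p = 0.995) and the NAB2 response by 0.23 ± 0.15 (adjusted p = 0.399). The EGR1 difference passed in all 25 alternatives, with adjusted p from 5.1e-06 to 0.0069. The other 3 calls depended on the setting. With edgeR the EGR3 difference was -1.78 (adjusted p = 0.127, in a range of 0.0031 to 0.127), and it missed the threshold without GemR siCont thapsigargin replicate 3 (-1.71), GemR siSTIM1 vehicle replicate 1 (-1.56) or GemR siSTIM1 thapsigargin replicate 2 (-1.50). The EGR2 call was lost in 11 of 24 alternatives, with adjusted p up to 0.147 and values from 0.94 to 1.42. The libraries whose loss ended it were GemR siCont vehicle replicate 1 (1.11), GemR siCont thapsigargin replicates 1 (1.23) and 2 (1.08), GemR siSTIM1 vehicle replicate 1 (1.13) and GemR siSTIM1 thapsigargin replicates 1 (1.19) and 2 (1.11), and it also ended without both libraries with a length trend (1.11, adjusted p = 0.103). The NAB1 call was lost in 11 of 25, with adjusted p up to 0.111 and values from -0.49 to -0.26. It ended without GemR siCont thapsigargin replicates 1 (-0.42) or 3 (-0.40), any siSTIM1 vehicle replicate (-0.45 to -0.41) or GemR siSTIM1 thapsigargin replicate 1 (-0.34), and without both libraries with a length trend (-0.26, adjusted p = 0.0605).

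Between GemR siSTIM1 and Par, which differ in line and siRNA together, 3 members passed, all lower in siSTIM1, where 7.98% of all genes passed. They were EGR1 (-1.73 ± 0.12, adjusted p = 6.2e-08), EGR2 (-1.24 ± 0.30, adjusted p = 0.0138) and NAB1 (-0.44 ± 0.11, adjusted p = 0.0224). EGR1 in siSTIM1-treated GemR cells thus responded more than in siCont-treated GemR cells and less than in Par. EGR2 did not pass with edgeR (-1.04, adjusted p = 0.213) or DESeq2 (-1.07, adjusted p = 0.231), in a range of 0.0025 to 0.231. NAB1 did not pass with edgeR (-0.40, adjusted p = 0.0664, in a range of 0.0018 to 0.0664), nor without Par vehicle replicates 1 (-0.42) or 3 (-0.42), Par thapsigargin replicate 1 (-0.42), GemR siSTIM1 vehicle replicate 1 (-0.41) or GemR siSTIM1 thapsigargin replicate 1 (-0.35). The responses of EGR3 (-0.92 ± 0.41, adjusted p = 0.170), EGR4 (-0.53 ± 0.35, adjusted p = 0.344) and NAB2 (-0.04 ± 0.15, adjusted p = 0.887) did not pass.

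**Figure D3:**
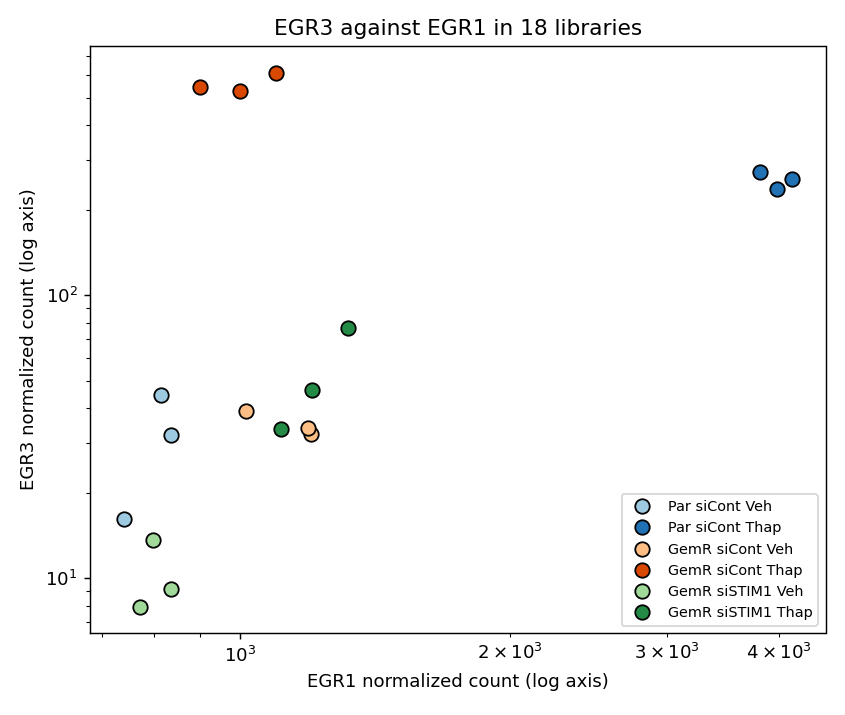
EGR3 against EGR1 in the 18 libraries, both as normalized counts on log axes, with 1 point a library coloured by group. Treated Par libraries lie furthest right (EGR1 at 3811 to 4136) and treated GemR siCont libraries highest (EGR3 at 529 to 613) at EGR1 values of 901 to 1095.

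The 2 lines were next compared at the same treatment. With vehicle 2 members passed between GemR siCont and Par, where 38.2% of all genes passed: EGR1 was 1.42-fold higher in GemR (0.51 ± 0.09, adjusted p = 1.1e-04) and EGR4 2.01-fold lower (-1.005 ± 0.25, adjusted p = 0.0031). EGR2 (0.42 ± 0.21, adjusted p = 0.125) and NAB2 (0.22 ± 0.11, adjusted p = 0.106) did not pass, although for both every GemR siCont library lay above every Par library. EGR2 passed in a fit with no trend (adjusted p = 0.0421, in a range of 0.0421 to 0.403 over 18 alternatives), and NAB2 without both libraries with a length trend (0.26, adjusted p = 0.0222, in a range of 0.0222 to 0.320 over 19 alternatives). EGR3 (0.28 ± 0.29, adjusted p = 0.473) and NAB1 (-0.07 ± 0.08, adjusted p = 0.495) did not pass either, and their libraries overlapped. With thapsigargin 4 members passed, against 48.2% of all genes. EGR1 was 3.99-fold lower in GemR siCont than in Par (-1.996 ± 0.09, adjusted p = 8.8e-13), EGR2 4.04-fold lower (-2.01 ± 0.21, adjusted p = 2.2e-07) and EGR4 2.91-fold lower (-1.54 ± 0.25, adjusted p = 4.1e-05), while EGR3 was 2.19-fold higher (1.13 ± 0.29, adjusted p = 0.0036). The 3 libraries of each line did not overlap for any of these 4. NAB1 (-0.08 ± 0.08, adjusted p = 0.451) and NAB2 (-0.04 ± 0.11, adjusted p = 0.777) did not pass, although for NAB1 every GemR siCont library lay below every Par library.

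In GemR with vehicle the levels of all 4 EGR genes were lower with siSTIM1 than with siCont. With vehicle 4 members passed between siSTIM1 and siCont, all lower, where 42.0% of all genes passed. EGR2 was 4.16-fold lower (-2.06 ± 0.21, adjusted p = 3.9e-07), EGR3 3.28-fold lower (-1.71 ± 0.29, adjusted p = 1.5e-04), EGR4 1.81-fold lower (-0.86 ± 0.25, adjusted p = 0.0094) and EGR1 1.41-fold lower (-0.50 ± 0.09, adjusted p = 1.6e-04). The EGR4 call was lost in a fit of only the libraries compared (adjusted p = 0.0584, in a range of 0.0030 to 0.0584). NAB1 (0.05 ± 0.08, adjusted p = 0.614) and NAB2 (0.20 ± 0.11, adjusted p = 0.149) did not pass, although for NAB2 every siSTIM1 library lay above every siCont library.

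With thapsigargin all 6 members passed between siSTIM1 and siCont, against 36.6% of all genes. EGR3 was 11.2-fold lower with siSTIM1 (-3.48 ± 0.29, adjusted p = 2.4e-08), and its highest siSTIM1 library, at 76.6, lay below its lowest siCont library, at 529. EGR2 was 1.82-fold lower (-0.86 ± 0.21, adjusted p = 0.0030), EGR4 1.80-fold lower (-0.85 ± 0.25, adjusted p = 0.0105) and NAB1 1.30-fold lower (-0.38 ± 0.08, adjusted p = 9.7e-04). EGR1 was 1.21-fold higher (0.28 ± 0.09, adjusted p = 0.0157) and NAB2 1.34-fold higher (0.42 ± 0.11, adjusted p = 0.0043). The EGR1 call was lost without GemR siCont thapsigargin replicate 1 (0.21, adjusted p = 0.1002) or GemR siSTIM1 thapsigargin replicate 3 (0.21, adjusted p = 0.0904), in a range of 0.0038 to 0.1002. The EGR4 call was lost without GemR siSTIM1 thapsigargin replicate 1 (-0.70, adjusted p = 0.0515) or 2 (-0.72, adjusted p = 0.0543), in a range of 0.0013 to 0.0543.

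**Figure D4:**
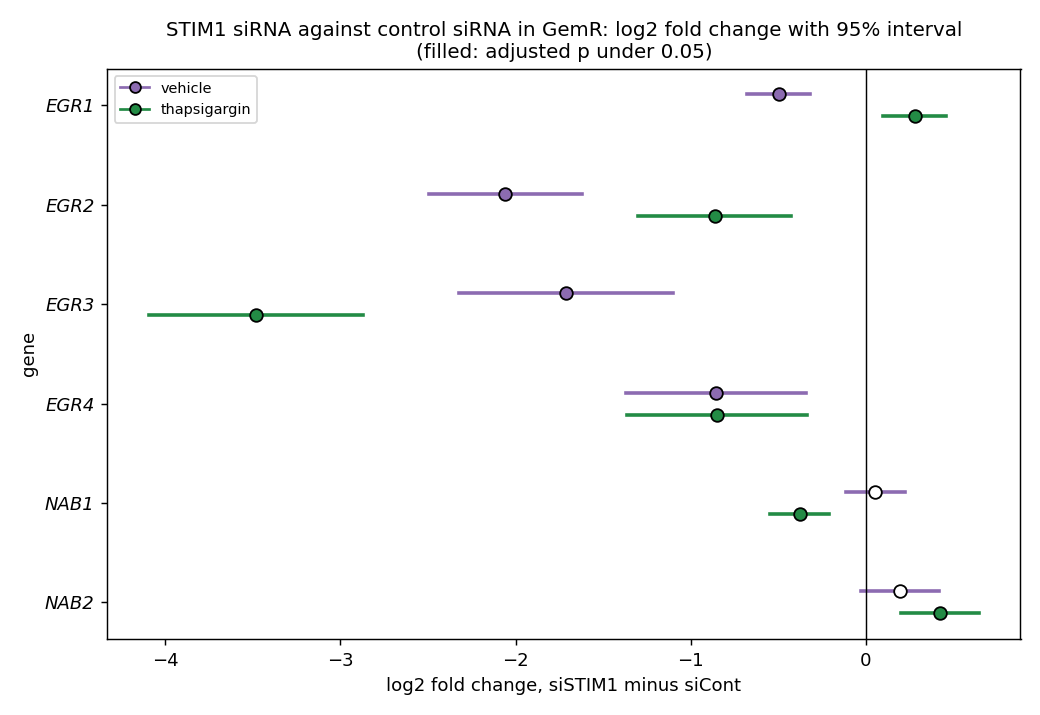
Log2 difference between siSTIM1 and siCont in GemR for each gene (x axis, log2 scale) under vehicle and under thapsigargin, with 95% intervals from limma. Filled points passed at an adjusted p under 0.05 and open points did not. EGR3 with thapsigargin lies furthest left at -3.48, and EGR1 lies left of 0 with vehicle (-0.50) and right of it with thapsigargin (0.28).

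In GemR siSTIM1 with vehicle EGR1 was close to its Par level, and the other EGR genes were below theirs. Against Par with vehicle, EGR1 in GemR siSTIM1 differed by 0.0097 ± 0.09 (95% interval -0.17 to 0.19, adjusted p = 0.934). In that comparison 4 members passed, where 50.4% of all genes did: EGR2 was 3.12-fold lower (-1.64 ± 0.21, adjusted p = 2.6e-06), EGR3 2.70-fold lower (-1.43 ± 0.29, adjusted p = 4.5e-04), EGR4 3.63-fold lower (-1.86 ± 0.25, adjusted p = 4.0e-06) and NAB2 1.34-fold higher (0.42 ± 0.11, adjusted p = 0.0029). With thapsigargin all 6 passed, against 53.0% of all genes. The 4 EGR genes were 3.29-fold (EGR1), 7.35-fold (EGR2), 5.10-fold (EGR3) and 5.25-fold (EGR4) lower than in Par, NAB1 was 1.37-fold lower and NAB2 1.30-fold higher.

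The levels of different genes were compared per kilobase of exon, as normalized counts divided by the length of the union of each gene's exons. In treated Par the order was EGR1 (1267 per kb), NAB1 (407), NAB2 (132), EGR4 (75.1), EGR3 (52.8) and EGR2 (29.2). In treated GemR siCont it was NAB1 (387), EGR1 (318), NAB2 (128), EGR3 (116), EGR4 (25.5) and EGR2 (7.07). EGR3 thus moved from below EGR4 to above it, and NAB1 from below EGR1 to above it. With vehicle, the ranks of EGR1 and NAB1 and of EGR2 and EGR4 in GemR siCont, and of EGR2 and EGR3 in GemR siSTIM1, changed when the longest transcript was used as the length.

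As a share of the summed EGR level per kb, EGR3 was 2.17% ± 0.87 in Par with vehicle and 3.71% ± 0.34 with thapsigargin. In GemR siCont its share was 1.88% ± 0.33 with vehicle and 24.8% ± 1.06 with thapsigargin, and in GemR siSTIM1 0.796% ± 0.23 and 2.54% ± 0.81. EGR1 made up 88.2% of the sum in Par with vehicle, 89.0% in treated Par and 68.1% in treated GemR siCont, its lowest share among the groups. The ratio of summed NAB to summed EGR level fell from 2.04 ± 0.11 with vehicle to 0.379 ± 0.01 with thapsigargin in Par. It was 1.55 ± 0.01 and 1.11 ± 0.07 in GemR siCont, and 2.46 ± 0.13 and 1.14 ± 0.09 in GemR siSTIM1. Corepressor message was therefore below EGR message in treated Par and above it in the other groups by mean ratio. The EGR sum takes in EGR4, which is not among the factors named above as carrying the domain on which NAB proteins dock. These shares and ratios are sums over RNA, given as SD over 3 libraries with no test.

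**Figure D5:**
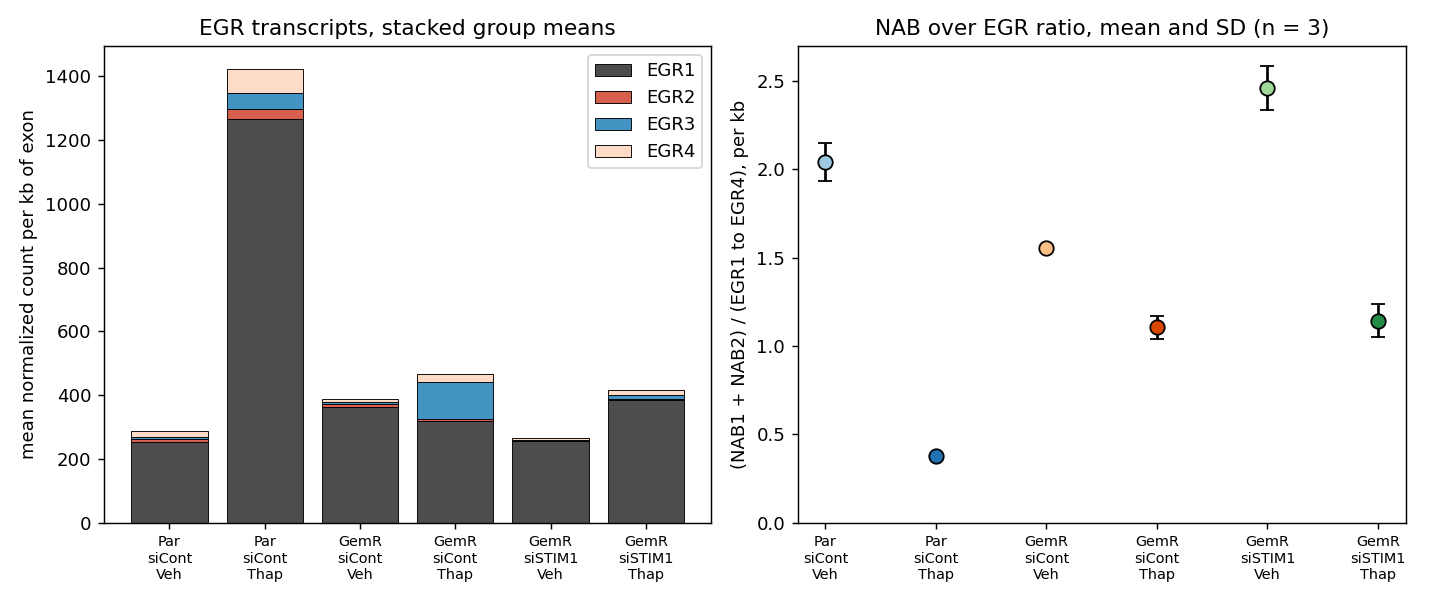
Left, group means of the 4 EGR genes as normalized counts per kb of exon, stacked on a linear axis from 0. Right, the ratio of summed NAB to summed EGR level per kb in each group, as mean and SD (n = 3). The EGR3 segment is widest in treated GemR siCont, at 116 per kb, and the ratio is below 1 in treated Par alone, at 0.379.

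Across the 18 libraries the members did not form a single pattern. On the log2 scale EGR1 correlated with EGR2 at Pearson's r of 0.81 and with EGR3 at 0.52, and EGR2 with EGR4 at 0.85. EGR3 and NAB2 had r of -0.89, and NAB1 had r between -0.20 and 0.45 with the other members. These values describe 18 libraries that share 6 group means and carry no test. Among 10937 genes with a mean of at least 50, those most like EGR1 were IFI16 (r = 0.95), RBM39 (0.95) and CTGF (0.94), and CTGF had means of 1413 with vehicle and 5564 with thapsigargin in Par, but 1231 and 1238 in GemR siCont. Those most like EGR3 were EHD4 (0.98), LRRC8C (0.96) and JUND (0.96). JUND, a subunit of AP-1, went from 979 to 2110 in Par, whereas GemR went from 743 to 3125 with siCont and from 479 to 1317 with siSTIM1. The nearest genes were HM13 (0.93), ME1 (0.93) and TBL2 (0.93) for EGR2, CDR2 (0.98), RTN4 (0.98) and GPAT3 (0.98) for EGR4, YTHDF3 (0.92), WRN (0.90) and APPL1 (0.90) for NAB1, and PYGO2 (0.94), ZNF346 (0.93) and TGIF2 (0.93) for NAB2.

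The other genes of the pathway were read from fixed lists. Each count of calls for thapsigargin stands against the 40.1% of all genes called in Par and the 33.6% called in GemR siCont. Of 24 other immediate early genes, 21 rose and 1 fell with thapsigargin in Par (median log2 difference 0.80, against -0.02 over all genes), and 16 rose and 1 fell in GemR siCont (median 1.03, against -0.03). Several of them responded more in GemR siCont than in Par: the response of NR4A2 was higher by 2.49 ± 0.25, that of FOSB by 2.28 ± 0.29 and that of FOS by 2.18 ± 0.20, whereas that of CTGF was lower, as that of EGR1 was (-1.99 ± 0.20). In all, 8 of the 24 responses were higher in GemR siCont and 4 lower, where 14.8% of all genes passed. Between siSTIM1 and siCont, where 4.41% of all genes passed, 9 responses were lower and 3 were higher. Among the lower were NR4A1 (-2.09 ± 0.20), FOS (-1.84 ± 0.20) and FOSB (-1.30 ± 0.29).

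Upstream, of the 20 genes of the ERK pathway and SRF factors 7 rose and 2 fell in Par (median 0.12), and 7 rose and 1 fell in GemR siCont (median 0.09), shares near those over all genes. The largest were HRAS in Par (-0.65 ± 0.12) and RPS6KA3, an ERK-activated kinase, in GemR siCont (0.60 ± 0.08). Of 14 ERK feedback genes, which are induced by ERK signalling and restrain it, 4 rose and 5 fell in Par and 2 rose and 3 fell in GemR siCont. The largest change was that of SPRY1, a Sprouty-family brake on growth factor signals, which fell 7.69-fold in Par and 4.22-fold in GemR siCont. Between GemR siCont and Par 3 responses were higher and 3 lower, where 14.8% of all genes passed. That of SPRY1 was higher, its fall being smaller in GemR siCont (0.87 ± 0.23, adjusted p = 0.0133), and that of DUSP5, an ERK phosphatase, was lower by 1.18 (-1.18 ± 0.14). ETV5, an ETS factor, rose 2.49-fold in Par and 1.32-fold in GemR siCont. Of 8 tested genes of calcineurin and NFAT, 4 rose in Par, and 3 rose and 2 fell in GemR siCont. There, NFATC2 rose 18.04-fold, RCAN1, a calcineurin inhibitor, 12.4-fold and NFATC1 4.46-fold, each with a higher response than in Par (by 2.64 ± 0.27, 2.13 ± 0.17 and 2.08 ± 0.24). With siSTIM1 the response of NFATC1 was lower than with siCont by 1.45 (-1.45 ± 0.24). It was the 1 gene of the 8 to pass, where 4.41% of all genes passed.

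Downstream, 25 of 30 listed genes reported as EGR targets were tested. In Par 12 rose and 7 fell (median 0.33), and in GemR siCont 14 rose and 4 fell (median 0.56). In GemR siSTIM1, where 24.3% of all genes were called, 11 rose and 3 fell (median 0.20). Between GemR siCont and Par 6 responses were higher and 6 lower, where 14.8% of all genes passed. ATF3 rose 21.2-fold in Par and 9.36-fold in GemR siCont, and the response of GADD45A was lower in GemR siCont than in Par by 1.17 (-1.17 ± 0.14), as those of EGR1 and EGR2 were. ATF3 and GADD45A are also known targets of the endoplasmic reticulum stress response, so the list is not specific to EGR factors. Of the 13 NuRD subunits, through which the NAB proteins repress, 1 rose and 3 fell in Par, and 4 fell in GemR siCont, shares no higher than those over all genes. MBD3 fell by the most in both (-0.47 ± 0.09 and -0.38 ± 0.09).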

How the data were processed

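Polyadenylated RNA was sequenced in 18 libraries, made, per the labels' protocols, by the TruSeq RNA Library Prep Kit v2, a kit that does not mark strand. The submitters' processing notes name hg38, STAR 2.6.0c, HTSeq 0.11.1 and DESeq2, while annotation, counting mode and filters were not given in the sources used here. A table of normalized counts that the authors deposited was treated as a signal. Each positive value was a whole multiple of the smallest in its library (100% within 0.01), which gave the reads. Further tables deposited by the authors hold their comparisons, with a log2 fold change, its standard error, a test score and an adjusted p-value per gene, per the file headers. All columns were matched to samples by name and 0 were left unused.

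From the normalized counts, log2(normalized count + 1) was fitted by limma 3.58.1 (with trend; 12 residual degrees of freedom; R 4.3.3) over all 18 libraries, for 13096 genes with a mean of at least 10. There were 12 comparisons, two-sided, adjusted by Benjamini and Hochberg over all genes and called at an adjusted p under 0.05. The members, gene lists, markers and comparisons were chosen with earlier results of these data known. Besides the members, the text could name STIM1, genes whose exons overlap a member's, for each member the 3 most correlated genes among those with means of at least 50, and up to 4 called genes of each list with the largest change. Positions and exon lengths came from GENCODE 29 (GRCh38), in which 23798 of 26485 symbols matched 1 gene. The scripts were tested on simulated data.

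Alternatives changed the pseudocount (0.5 or 5), the filter (none, or a mean of at least 50), the scaling (median-centred or quantile-normalized values), the limma prior (no trend, or robust) and the libraries in the fit (those compared, each library left out in turn, or both libraries with a length trend left out). Others added the replicate number as a block, or ran edgeR 4.0.16 and DESeq2 1.42.0 on the recovered reads of 17 libraries. GemR siSTIM1 vehicle replicate 3 was left out of the count tests, since its step of 0.993 lay too near 1 to be checked. On those reads edgeR called 5246 genes for thapsigargin in Par and DESeq2 5061, against 5253 with limma. Counts were further apart in comparisons that lacked the left-out library. For siSTIM1 against siCont with vehicle edgeR called 4415 and DESeq2 4363, against 5496 with limma. For thapsigargin in GemR siSTIM1 they called 2635 and 2752, against 3187. Python 3.11.15 drew the figures (matplotlib 3.10.9, with pandas 2.3.3 and numpy 2.4.6).

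A gene of the EGR target list that the naming rule selected is not reported here.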

Additional observations from a re-analysis of the deposited data

Results flagged for a closer look

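A test of the difference itself found that the thapsigargin response of a member was not the same in 2 groups in 9 cases (limma, adjusted p over all genes). The 3 comparisons of responses share groups, and each follows from the other 2, so the cases are not independent. Of all genes, 14.8% passed for GemR siCont against Par, 4.41% for GemR siSTIM1 against GemR siCont and 7.98% for GemR siSTIM1 against Par. EGR1 gave 3 of the 9 cases. Its log2 response in GemR siCont was -2.50 ± 0.12 relative to Par (adjusted p = 8.4e-11), in GemR siSTIM1 -1.73 ± 0.12 relative to Par (adjusted p = 6.2e-08), and in GemR siSTIM1 0.78 ± 0.12 relative to GemR siCont (adjusted p = 6.8e-04). For EGR2 the same 3 differences were -2.43 ± 0.30 (adjusted p = 1.1e-05), -1.24 ± 0.30 (adjusted p = 0.0138) and 1.19 ± 0.30 (adjusted p = 0.0255). With vehicle both genes were lower with siSTIM1 than with siCont (-0.50 for EGR1 and -2.06 for EGR2). EGR3 was found in 1 case, with a response lower in GemR siSTIM1 than in GemR siCont (-1.77 ± 0.41, adjusted p = 0.0179). NAB1 was found in 2, with a response lower in GemR siSTIM1 than in GemR siCont (-0.43 ± 0.11, adjusted p = 0.0343) and than in Par (-0.44 ± 0.11, adjusted p = 0.0224). The EGR2 and NAB1 differences that involve siSTIM1 and the EGR3 difference were lost in some alternatives, whose values stand beside them above.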

How the results depend on the processing

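Of 1464 recomputed member values, 1386 kept their direction and their side of the threshold, 42 lost the call, 7 gained it and 29 changed sign. Every value that changed sign belonged to a difference that did not pass in the first place. For NAB1 these were GemR siCont against Par with vehicle (-0.12 to 0.015 without 1 library and 0.015 without both libraries with a length trend), siSTIM1 against siCont with vehicle (-0.035 to 0.099 and -0.035 likewise), GemR siSTIM1 against Par with vehicle (0.064 quantile-normalized, 0.013 without 1 library) and the response of GemR siCont against Par (0.020 quantile-normalized, 5.0e-04 with edgeR, -0.092 to 0.043 without 1 library). For EGR4 it was the response of siSTIM1 against siCont (-0.074 at a pseudocount of 5, -0.028 without both libraries, -0.28 to 0.18 without 1 library). For NAB2 these were GemR siCont against Par with thapsigargin (-0.15 to 0.043 without 1 library) and the response of GemR siSTIM1 against Par (0.0081 with edgeR, -0.16 to 0.044 without 1 library). For EGR3 it was GemR siCont against Par with vehicle (-0.11 to 0.59 without 1 library, -0.11 being without Par vehicle replicate 1), and for EGR1 GemR siSTIM1 against Par with vehicle (-0.043 to 0.046 without 1 library).

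A fit of only the libraries compared called 2843 genes in place of 4402 for thapsigargin in GemR siCont, 3129 in place of 5000 for GemR siCont against Par with vehicle, 3294 in place of 5496 for siSTIM1 against siCont with vehicle, 317 in place of 577 for the response of siSTIM1 against siCont and 2164 in place of 1045 for that of GemR siSTIM1 against Par. For the response of siSTIM1 against siCont edgeR called 337 genes, and 323 to 1216 were called without 1 library. There 4 members passed, but 2 with no filter, with only the libraries compared and without both libraries with a length trend, 1 with edgeR, and 1 to 4 without 1 library. For the response of GemR siCont against Par 1938 genes were called, 3854 without both libraries with a length trend and 1532 to 2945 without 1 library (2945 without GemR siCont vehicle replicate 1), and with a minimum mean of 50, which leaves EGR2 out, 1 member passed. For that of GemR siSTIM1 against Par 1 member passed with edgeR, 2138 genes were called without both libraries with a length trend, and 621 to 1081 without 1 library. Quantile normalization moved the share of higher calls from 53.1% to 42.4% for thapsigargin in GemR siCont and from 34.1% to 45.5% for the response of siSTIM1 against siCont. The cause of these changes was not tested, except that a minimum mean of 50 leaves EGR2 untested.

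Same-numbered replicates did not deviate together throughout: 1 of 15 group pairs had all its correlations over 0.1 (range -0.18 to 0.49), so the numbers were not taken as pairs. Libraries of unlike number were not compared in this way. The replicate block left the number of members called in each of the 12 comparisons as it was, but called more genes in each. It called 5472 against 5253 for thapsigargin in Par, and 679 against 577 for the response of siSTIM1 against siCont. With the longest transcript as length, the NAB to EGR ratio was 2.26 and 0.420 in Par with vehicle and thapsigargin, and EGR3 took 26.9% of the EGR sum in treated GemR siCont. Depth limited EGR2, EGR3 and EGR4 in GemR siSTIM1 with vehicle, which rest on 6 to 15 reads a library.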

Other observations

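The authors' deposited tables also set both treated GemR groups against Par with vehicle, a comparison not used above. Line and treatment differ together in it, and for GemR siSTIM1 the siRNA as well. Treated GemR siCont cells had EGR3 18.7-fold above that resting Par level (log2 4.23 ± 0.26, adjusted p = 1.3e-58), EGR1 1.25-fold above it (0.32 ± 0.09, adjusted p = 0.0020) and NAB2 1.63-fold below it (-0.71 ± 0.12, adjusted p = 8.5e-09) in the authors' deposited table, while EGR2 (0.0067 ± 0.29, adjusted p = 0.990), EGR4 (0.30 ± 0.25, adjusted p = 0.366) and NAB1 (0.034 ± 0.08, adjusted p = 0.795) did not pass there. Treated GemR siSTIM1 cells had EGR1 1.52-fold (0.60 ± 0.09, adjusted p = 5.3e-10) and EGR3 1.74-fold (0.80 ± 0.28, adjusted p = 0.0102) above resting Par in the authors' deposited table, with EGR2 1.86-fold (-0.90 ± 0.32, adjusted p = 0.0133), NAB1 1.27-fold (-0.34 ± 0.08, adjusted p = 2.1e-04) and NAB2 1.21-fold (-0.28 ± 0.11, adjusted p = 0.0321) below it. EGR4 (-0.50 ± 0.26, adjusted p = 0.113) did not pass in the authors' deposited table.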
